A study of Mus musculus with 6 samples.

Results

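The chemokine ligands Ccl3, Ccl4, Ccl5, Ccl6, Ccl9, Cxcl2, Cxcl10 and Cxcl16 were examined in haematopoietic stem and progenitor cells (HSPCs) of mice with and without the Mediator subunit gene Med12. All 11 probe sets that the platform annotation assigns to exactly 1 of these 8 symbols were taken, among 45037 probe sets and 18193 genes measured. The set was chosen because of the signals of Ccl3 in these same arrays, so the differences of the 8 ligands between the groups are given as a description, without a test. The Med12 KO cells came from Med12Flox;MxCre mice, in which Mx-Cre, a recombinase driven by an interferon-responsive promoter, removes the floxed Med12 allele. The control cells came from control mice whose genotype and Cre status are not given in the sources used here. Both groups were of B6/129 background, received pI:pC, which triggers an interferon response, and were sorted from bone marrow 4 days later as cells without lineage markers that carried c-Kit and Sca1. Each group had 3 arrays, and nothing in the labels says that the 3 came from separate animals. The p-values therefore cover the spread among the arrays at hand, which may be technical.

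Chemokines are small proteins that bind G protein-coupled receptors on leukocytes and steer where those cells move. The CC and CXC classes are named for the spacing of their first cysteines, and most are secreted. In blood-forming tissue they are made by many cell types, mature leukocytes among them, and Ccl3 is known in mice as an inhibitor of the division of stem and progenitor cells. Many chemokine genes are switched on by NF-kB or by interferon.

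Med12 itself had signals of 89.1, 100.4 and 86.4 in Med12 KO cells, against 278.6, 837.4 and 441.6 in control cells, and limma's adjusted p for it was 0.0796. The median signal per array was 16.5 to 21.3 in Med12 KO cells and 26.7 to 26.9 in control cells, and 45.5% to 49.5% of probe sets in Med12 KO cells and 41.6% to 42.3% in control cells had a signal under 16. Signals near or under 16 are called dim here. Of 45037 probe sets, 99 rose and 244 fell in Med12 KO cells at an adjusted p under 0.05 in limma's test on log2(signal + 16). The number of arrays limits the precision. In bulk samples such as these, fewer cells of a type and less RNA per cell cannot be told apart.

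The CC ligands of the set had lower signals in Med12 KO cells and its CXC ligands did not separate the groups. For all 5 CC ligands, each of the 3 Med12 KO signals lay below each of the 3 control signals. The log2 differences (Med12 KO minus control) of those 5 ran from -4.60 to -1.22, while Cxcl2, Cxcl10 and Cxcl16 were at -0.51, 0.01 and -0.15 with overlapping groups. Over the 8 genes, each read from its brightest probe set on average, the median log2 difference was -1.46, against -0.05 over all 18193 genes. Every Med12 KO signal lay below every control signal for 5 of the 8 genes and 7 of the 11 probe sets, where this held for 13.6% of all genes and 13.3% of all probe sets, and the groups separated in either direction for 23.4% of all genes and 20.9% of all probe sets. In the fit over all probe sets, 1 of the 8 genes (Ccl3) and 2 of the 11 probe sets passed the threshold, both downward, where 0.989% of genes and 0.762% of probe sets did (0.638% of genes downward and 0.352% upward, 0.542% of probe sets downward and 0.22% upward). Nothing is read from these counts, since the set was chosen on this comparison. The 2 calls were lost under some settings: no probe set passed with a replicate block or without Med12 KO replicate 1 or 3.

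**Figure D1:**
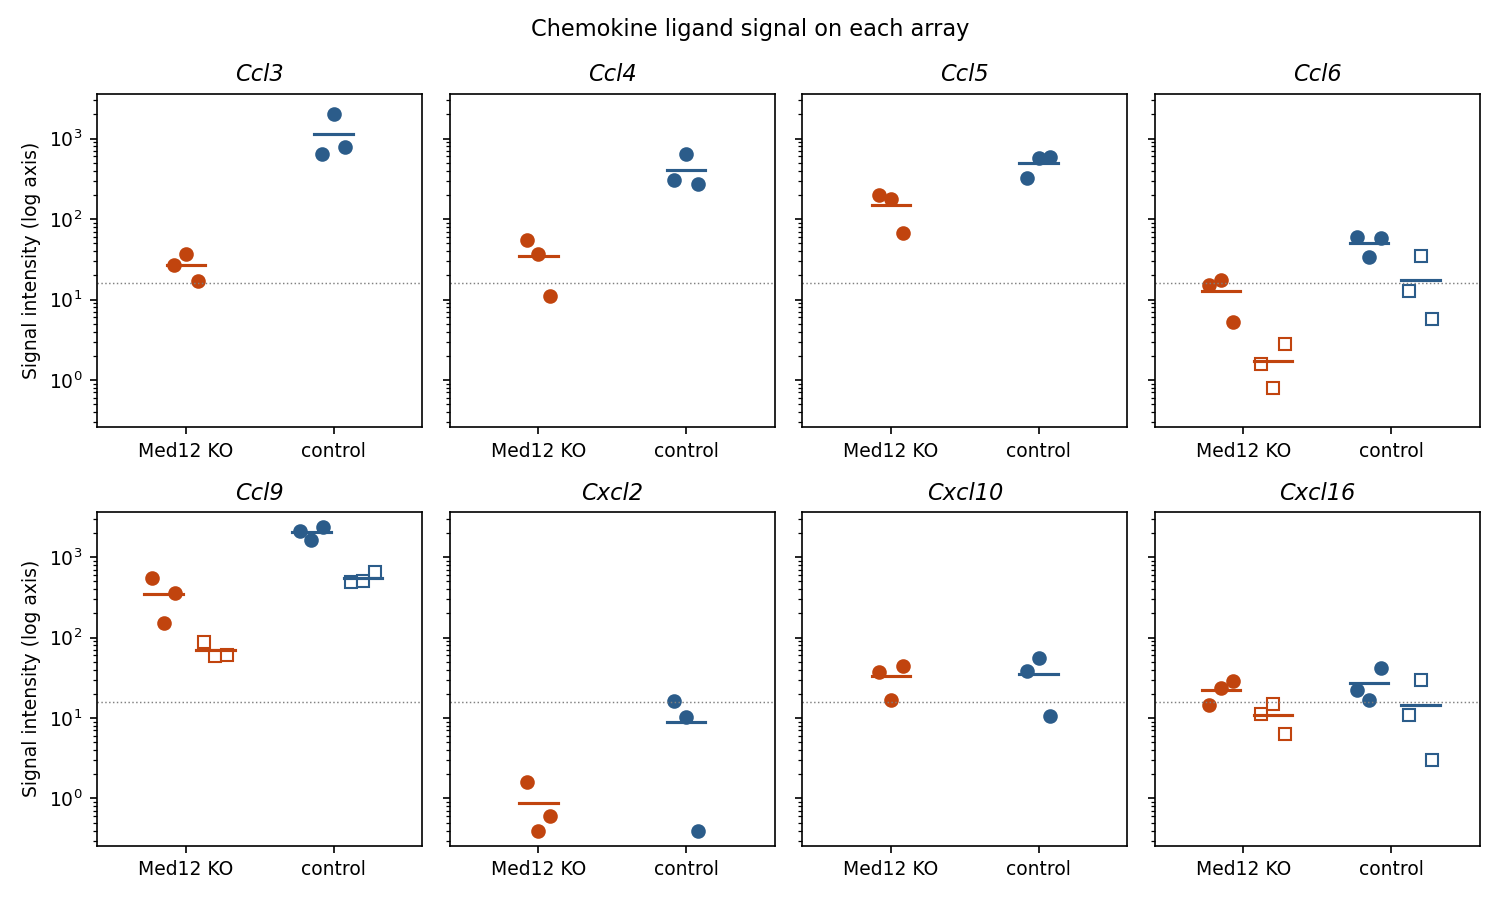
Signal intensity (log axis) of each of the 8 chemokine ligands on the 3 Med12 KO arrays (orange, left) and the 3 control arrays (blue, right); filled circles are the probe set of highest mean, open squares the dimmer probe set of Ccl6, Ccl9 and Cxcl16, bars the group means and the dotted line a signal of 16. The groups separate in all 5 CC panels and overlap in the 3 CXC panels, with Ccl3 at 16.9 to 36.8 in Med12 KO cells and 639.2 to 2027.5 in control cells.

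Ccl3, a ligand of the receptor Ccr1 that draws monocytes and other leukocytes, had signals of 26.6, 36.8 and 16.9 in Med12 KO cells, against 639.2, 2027.5 and 775.6 in control cells. The Med12 KO arrays were in or little above the dim range, and control replicate 2 stood well above the other two. The mean was 26.8 ± 9.95 in Med12 KO cells and 1147 ± 765 in control cells (SD, n = 3 each). The difference on the log2 scale was -4.60 (SE 0.46). Ccl4, a leukocyte attractant encoded beside Ccl3, had signals of 54.7, 37.1 and 11.1 in Med12 KO cells, against 307.9, 638 and 274.1 in control cells. The highest control array was the same one as for Ccl3, and Med12 KO replicate 3 was the lowest array for both genes. The Ccl4 mean was 34.3 ± 21.9 in Med12 KO cells and 407 ± 201 in control cells, a log2 difference of -3.08 (SE 0.46).

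Ccl9, a mouse chemokine made by myeloid cells that signals through Ccr1, was read by a pair of probe sets. The brighter one gave 543.2, 151.1 and 358.5 in Med12 KO cells, against 2123.9, 1643.7 and 2354.9 in control cells. The dimmer one gave 87.8, 59.1 and 61.5 in Med12 KO cells, against 489.2, 499.5 and 652.4 in control cells. Both separated the groups by a similar amount, with log2 differences of -2.64 (SE 0.45) and -2.72 (SE 0.19). They differed in spread: the SD of the log2 signals in Med12 KO cells was 0.89 for the brighter and 0.26 for the dimmer probe set. The dimmer one is the probe set that passed the threshold together with that of Ccl3.

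Ccl6, a further Ccr1 ligand known from rodents, was dim in Med12 KO cells on both of its probe sets. Its brighter probe set had signals of 15.2, 17.4 and 5.3 in Med12 KO cells, against 60.1, 34 and 57.7 in control cells, a log2 difference of -1.22 (SE 0.25). Its other probe set had signals of 1.6, 0.8 and 2.8 in Med12 KO cells, against 12.7, 34.4 and 5.8 in control cells, a log2 difference of -0.84 (SE 0.31). With signals raised to a floor of 16 in place of the added 16, these differences were -1.58 and -0.37, so their size depends on how dim signals are treated. Ccl5, made by T cells, NK cells and platelets among others and bound by Ccr1 and Ccr3 among others, was above the dim range on every array. Its signals were 201.8, 175.9 and 67.7 in Med12 KO cells, against 322.2, 567.5 and 597 in control cells. The mean was 148 ± 71.1 in Med12 KO cells and 496 ± 151 in control cells, a log2 difference of -1.70 (SE 0.43). Med12 KO replicate 3 was again the lowest array, and without it the Ccl5 log2 difference was -1.27. That array was also the dimmest over all probe sets, with a median signal of 16.5 against 20.6 and 21.3 on the other Med12 KO arrays.

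The letters before the start of Ccl3 and Ccl9 are shown because these genes had the largest CC differences for which a promoter sequence was at hand. The RefSeq promoter table (GRCm38.p6) held 5 of the 8 ligands, namely Ccl3, Ccl6, Ccl9, Cxcl2 and Cxcl10. Each window is the 250 bases before the annotated start, 5′ to 3′ on the gene's own strand, and capitals mark matches to any of 6 motifs on either strand. The motifs were the NF-kB consensus, TGANTCA (AP-1), TTGCNNAA (C/EBP), the interferon-stimulated response element (a pair of TTTC runs with any 2 bases between them), GAGGAA (the core read by PU.1) and TATAAA (the TATA box). The Ccl3 window lies at chr11:83649379-83649628 and the Ccl9 window at chr11:83578637-83578886, both on the minus strand.
Ccl3: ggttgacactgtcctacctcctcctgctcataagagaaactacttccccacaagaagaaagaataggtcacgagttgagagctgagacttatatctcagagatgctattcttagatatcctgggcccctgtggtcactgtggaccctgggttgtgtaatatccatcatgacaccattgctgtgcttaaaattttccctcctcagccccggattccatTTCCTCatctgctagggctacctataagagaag
Ccl9: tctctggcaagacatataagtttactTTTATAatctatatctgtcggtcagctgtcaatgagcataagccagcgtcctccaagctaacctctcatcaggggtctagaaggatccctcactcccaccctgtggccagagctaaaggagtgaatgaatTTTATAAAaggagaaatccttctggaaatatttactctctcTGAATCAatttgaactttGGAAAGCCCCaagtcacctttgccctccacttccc
The Ccl3 window held 1 match to the PU.1 core and none to the other 5 motifs. The Ccl9 window held 1 match to the NF-kB consensus, 1 to TGANTCA and 3 to TATAAA, of which the pair nearer the start overlap each other. The Ccl6 window held no match to any of the 6. A match is a description of letters only.

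The CXC ligands of the set had low signals in both groups. Cxcl10, an interferon-induced ligand of Cxcr3, had signals of 36.9, 16.8 and 44.8 in Med12 KO cells, against 38.2, 56.3 and 10.5 in control cells. The groups overlapped fully, with means of 32.8 ± 14.4 in Med12 KO cells and 35.0 ± 23.1 in control cells and a log2 difference of 0.01 (SE 0.43). The sign of that difference turned to -0.12 with array weights and to -0.10 with signals raised to a floor of 16. Cxcl16, a membrane-anchored ligand of Cxcr6 that can be shed by the protease Adam10, had signals of 14.4, 23.6 and 28.5 in Med12 KO cells, against 22.3, 16.9 and 42.4 in control cells. Its log2 difference was -0.15 (SE 0.27) on this probe set and -0.11 (SE 0.34) on the dimmer one, and both sets of arrays overlapped. On the brighter probe set it turned to 0.12 after median centring and to 0.11 after quantile or loess normalization. Cxcl2, a neutrophil attractant that binds Cxcr2, had signals of 1.6, 0.4 and 0.6 in Med12 KO cells, against 16.4, 10.2 and 0.4 in control cells. Control replicate 3 was as low as the lowest Med12 KO array, and no control array was clearly above the dim range.

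The window before Cxcl10 is shown beside those of Ccl3 and Ccl9 because it carries a match to the interferon-stimulated response element, which neither of them has. It lies at chr5:92348890-92349139 on the minus strand.
Cxcl10: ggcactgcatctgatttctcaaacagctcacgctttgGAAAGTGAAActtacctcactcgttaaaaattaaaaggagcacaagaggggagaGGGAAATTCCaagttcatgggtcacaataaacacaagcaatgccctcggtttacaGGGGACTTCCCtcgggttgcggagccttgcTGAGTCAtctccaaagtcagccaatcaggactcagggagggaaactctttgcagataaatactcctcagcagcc
It held 3 matches to the NF-kB consensus, of which the pair nearer the start overlap, 1 to TGANTCA and 1 to the interferon-stimulated response element. The Cxcl2 window held 2 overlapping matches to the NF-kB consensus. The NF-kB consensus was found in 3 of the 5 windows and in 7.25% of all 32851 windows of the same length. For TGANTCA it was 2 of the 5 and 6.75%, for the interferon-stimulated response element 1 and 2.98%, for GAGGAA 1 and 23.3%, for TATAAA 1 and 12.4%, and for TTGCNNAA 0 and 9.56%.

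The 5 CC ligands stand next to each other on chromosome 11, in the order Ccl5, Ccl9, Ccl6, Ccl3 and Ccl4 in the RefSeq gene table. The ligands were chosen with earlier results of these data known, so nothing is read from their standing together. No other protein-coding gene lies between them, and the next genes after Ccl4 are Wfdc17 and Wfdc18, which encode small secreted proteins of the whey acidic protein family. Both fell in Med12 KO cells. Wfdc17, known from activated macrophages and microglia, had signals of 78.1, 63.1 and 29.7 in Med12 KO cells, against 579, 778.8 and 1181.2 in control cells (log2 difference -3.57, SE 0.37; limma's adjusted p = 0.0314). Wfdc18 had signals of 0.9, 1.7 and 1.6 in Med12 KO cells, against 103.4, 291.3 and 281.9 in control cells (log2 difference -3.67, SE 0.38; limma's adjusted p = 0.0314). Its probe set is of a kind that can read several related transcripts.

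Of the 12 protein-coding genes taken as the nearest 6 on each side of the 5 ligands, 9 were measured, 2 fell, none rose and 7 did not pass limma's test. The share of all genes that fell was 0.638%. The 7 others had log2 differences of -0.88 to 0.49. This set of neighbours was drawn up after the ligands' values were seen. The 2 calls were lost under several settings: the adjusted p without 1 array was 0.0829 to 0.121 for Wfdc17, and for Wfdc18 it was 0.0289 without control replicate 1 and up to 0.121 without another array. Under the other settings the adjusted p ranged from 0.00574 to 0.159 for Wfdc17 and from 0.00582 to 0.153 for Wfdc18.

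The other chemokine groups of these chromosomes had differences nearer 0. The 6 ligands from Ccl2 to Ccl1, a separate group on chromosome 11, had log2 differences of 0.01 to 0.50 with overlapping groups, and 5 of the 6 were under 16 on every array. Ccl2, the monocyte attractant of that group, named after its values were seen as the exception, had signals of 30, 55.8 and 53.8 in Med12 KO cells, against 40.8, 25.3 and 18.9 in control cells. On chromosome 5, the 7 ligands from Cxcl5 to Cxcl2 had log2 differences of -0.51 to 1.04 and all overlapped, and 4 of the 7 were under 16 on every array. Genes so dim can differ little on this scale. Of the measured neighbours of the Ccl2, Cxcl5 and Cxcl9 groups (12, 11 and 11 genes), limma's test called none.

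**Figure D2:**
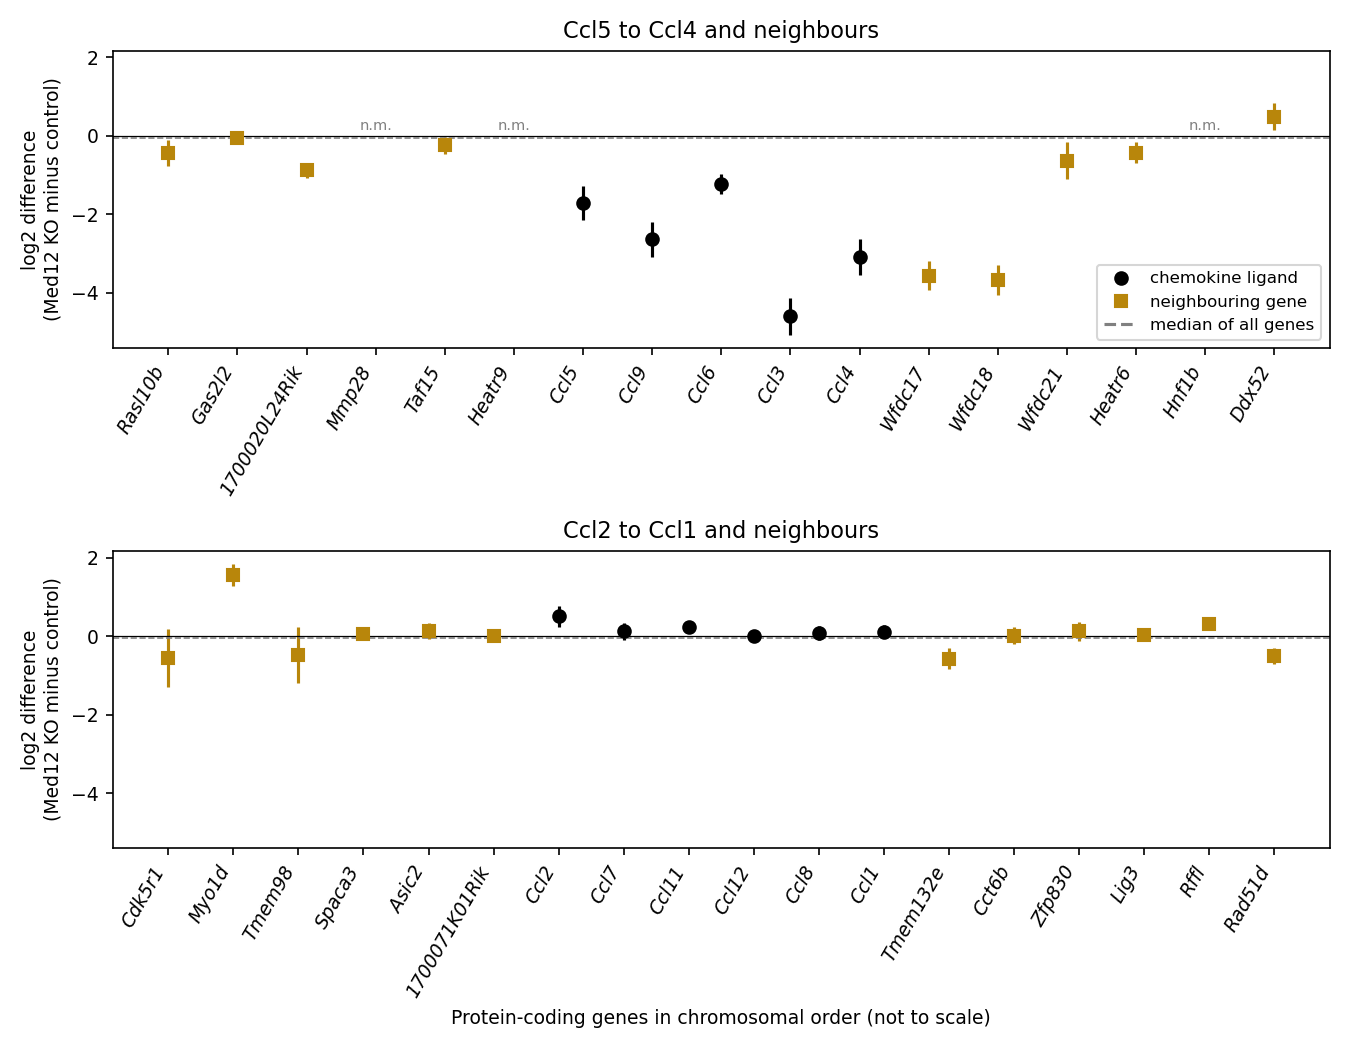
Log2 difference (Med12 KO minus control, bars ± SE) of protein-coding genes in chromosomal order, not to scale, for the Ccl5 to Ccl4 group (top) and the Ccl2 to Ccl1 group (bottom) of chromosome 11; circles are ligands, squares neighbours, n.m. marks genes that were not measured here and the dashed line is the median of all genes. The 5 ligands at the top run from -4.60 to -1.22 and are followed by Wfdc17 and Wfdc18 at -3.57 and -3.67, while the 6 ligands at the bottom lie between 0.01 and 0.50.

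The genes whose pattern over the 6 arrays was most like that of Ccl3 were Wfdc18, the receptor genes Ccr2 and Il7r, the syndecan gene Sdc1 and Wfdc17. Likeness was the root mean square difference of log2 values centred on each probe set's own mean, which was 0.65, 0.67, 0.69, 0.78 and 0.80 for them in that order. Ccl4 came eighth, at 0.84. The genes nearest to Ccl9 were Auts2, Cnn3, Card6, Ldlrad4 and Ifi209, at 0.28 to 0.37. Those nearest to Cxcl10, at 0.14 to 0.17, were Coq10b, Ddc, Dusp28, Ttc37 and Zfp248. Those nearest to Cxcl16, at 0.05 to 0.09, were A330049N07Rik, Gli2, Defb29, Adam24 and 2310047K21Rik, which had low signals on most arrays. All arrays share the 2 groups, so genes with a large difference between them look alike on this measure.

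Of the 30 other ligands of the family listed, 27 were measured, and none passed limma's test over all probe sets, while 4 of the 27 had an unadjusted p under 0.05, as did 18.2% of all genes. Their median log2 difference was -0.03, and 12 of the 27 were under 16 on every array. Of the 27, 14 were lower in Med12 KO cells, or 5 after centring arrays on their medians, 9 with quantile and 10 with loess normalization. Ccl17, a Ccr4 ligand made by dendritic cells, had signals of 377.1, 277.1 and 160.7 in Med12 KO cells, against 126.5, 10.9 and 30.7 in control cells. Every Med12 KO signal lay above every control signal (log2 difference 2.28, SE 0.65; limma's adjusted p = 0.184). The next by unadjusted p were the interferon-induced Cxcl11 (log2 difference 0.73; adjusted p = 0.259; -0.12 on its dimmer probe set), the membrane-bound Cx3cl1 (-0.87; 0.298) and the B cell attractant Cxcl13 (-0.36; 0.311). The dimmer probe set of Cxcl13 went the other way, at 0.20, and those of Cx3cl1 ranged from -0.34 to -0.01. Pf4, a platelet chemokine named after its values were seen because it was bright on every array, had signals of 2976.8, 3679.2 and 3021.7 in Med12 KO cells, against 2344.9, 3237.9 and 3552.8 in control cells. Its groups overlapped, with a log2 difference of 0.10 (SE 0.20).

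**Figure D3:**
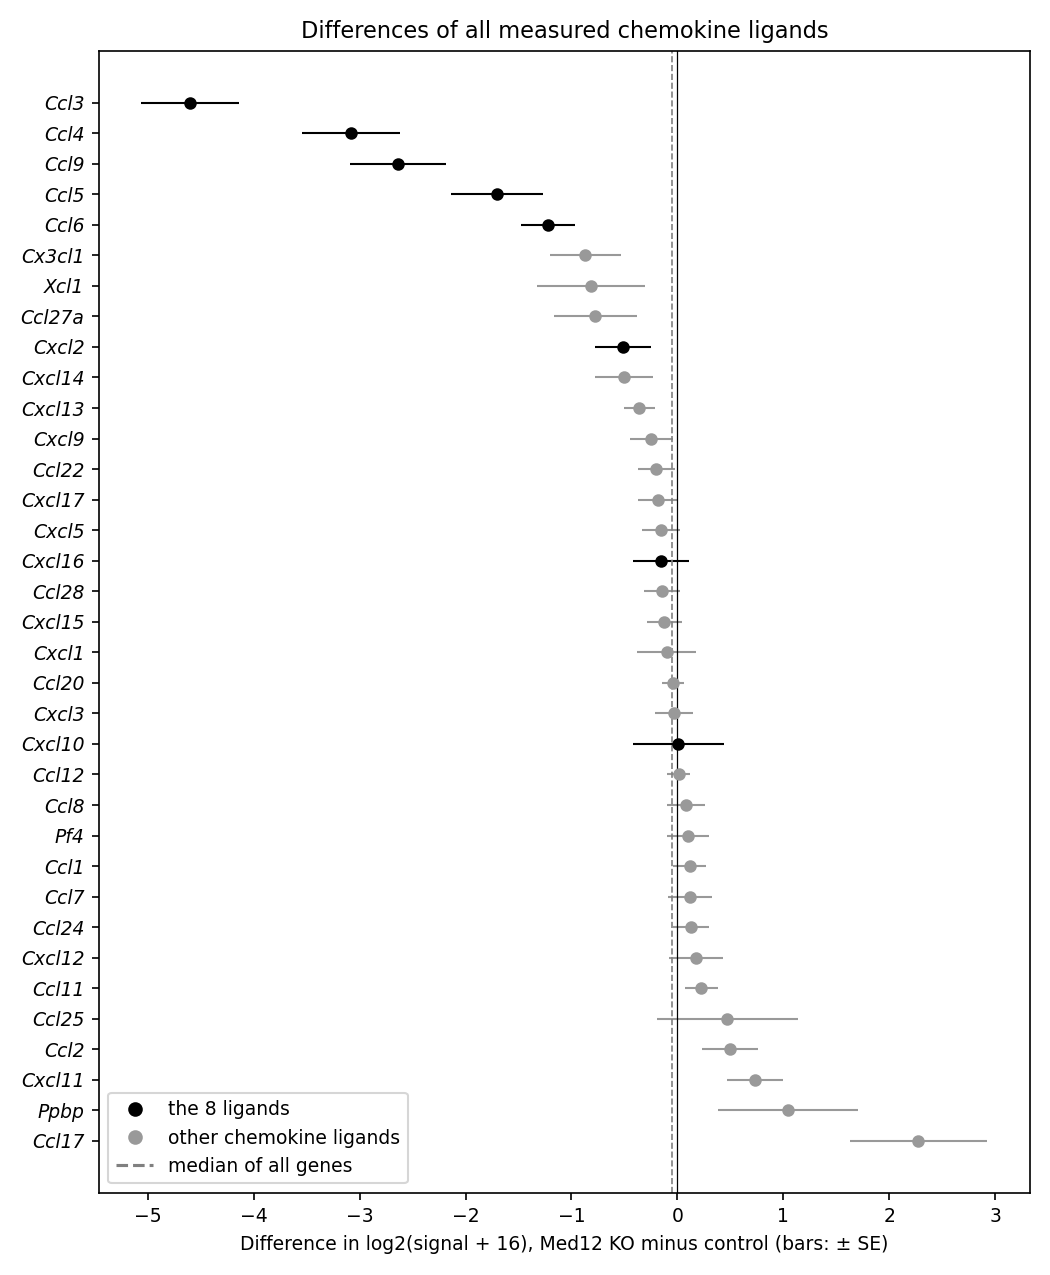
Difference in log2(signal + 16), Med12 KO minus control, with bars of ± SE, for the 8 ligands (black) and the 27 other measured chemokine ligands (grey); the dashed line is the median of all genes. The 5 CC ligands of the set fill the top of the plot from -4.60 to -1.22, Cxcl2, Cxcl10 and Cxcl16 lie among the grey points, and Ccl17 is at the bottom at 2.28.

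Receptors of the 5 CC ligands were measured on the same arrays. Of 24 receptor and atypical receptor genes listed, 22 were measured, 3 fell in Med12 KO cells, none rose and 19 did not pass. Over all genes 0.638% fell and 0.352% rose. In limma's test 6 of the 22 had an unadjusted p under 0.05, against 18.2% of all genes. The median log2 difference of the 22 was -0.05, and centring the arrays on their medians moved it to 0.22. Ccr1, the receptor shared by Ccl3, Ccl5, Ccl6 and Ccl9, had signals of 3.7, 0.5 and 0.2 in Med12 KO cells, against 80.2, 45.6 and 46.7 in control cells (log2 difference -2.05, SE 0.22; limma's adjusted p = 0.0314). The other Ccr1 probe set was dimmer and its groups overlapped (log2 difference -0.91; adjusted p = 0.406). Ccr2, the receptor of monocytes for Ccl2, had signals of 10.4, 6.5 and 1.2 in Med12 KO cells, against 472.6, 576.3 and 134.8 in control cells (log2 difference -4.02, SE 0.54; limma's adjusted p = 0.0480). Its other 3 probe sets were also lower on every Med12 KO array, with adjusted p of 0.0682, 0.0855 and 0.186. Ccr7, a receptor that guides cells to lymphoid tissue, fell as well (log2 difference -1.72, SE 0.21; limma's adjusted p = 0.0405).

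Of the other receptors for the 8 ligands, the 4 given here did not pass limma's test. Cxcr2, which binds Cxcl2, had signals of 15.2, 9.8 and 11.3 in Med12 KO cells, against 74, 60.1 and 24.7 in control cells (log2 difference -1.22; adjusted p = 0.150). Cxcr3, which binds Cxcl10, was at 12.3 to 25.4 in Med12 KO cells and 14.3 to 25.7 in control cells. Ccr3 and Cxcr6 were under 16 on every array. Ccr9, next by unadjusted p, was at -1.67 (adjusted p = 0.0761), and its dimmer probe sets ranged from -1.57 to 0.43. The calls for Ccr1, Ccr2 and Ccr7 rested on having all 6 arrays: with 1 array left out their adjusted p was 0.0744 to 0.122, 0.0370 to 0.155 and 0.0678 to 0.143, and only Ccr2 without control replicate 3 passed.

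A further list held NF-kB subunits and inhibitors, interferon regulatory and other transcription factors, inducing cytokines, and proteases that cut or shed chemokines. Of its 32 measured genes, 2 fell in Med12 KO cells, none rose and 30 did not pass, where 0.638% of all genes fell. In limma's test 10 of the 32 had an unadjusted p under 0.05, against 18.2% of all genes. Irf8, a transcription factor of monocyte and dendritic cell fates, had signals of 22, 36.5 and 12.3 in Med12 KO cells, against 800.7, 388.3 and 783.3 in control cells (log2 difference -4.06, SE 0.36; limma's adjusted p = 0.0293). Its other probe set also passed (-3.66; adjusted p = 0.0405). Rel, the c-Rel subunit of NF-kB, had signals of 81.3, 90.6 and 55.6 in Med12 KO cells, against 302.5, 287.1 and 264.6 in control cells (log2 difference -1.73, SE 0.18; limma's adjusted p = 0.0314). The NF-kB subunit Rela, named after its values were seen, was at 290 to 380 in Med12 KO cells and 283 to 345.4 in control cells. Next by unadjusted p were the myeloid factor Cebpa (-1.82; adjusted p = 0.0971) and the NF-kB inhibitor Nfkbie (-1.34; adjusted p = 0.103). A dimmer probe set of Dpp4, a protease that trims chemokines, also fell (log2 difference -1.50; limma's adjusted p = 0.0376), while its brighter one did not pass (-1.24; 0.307). The inducing cytokines Il1a, Ifnb1 and Ifng were under 16 on every array. Without 1 array the adjusted p was 0.0609 to 0.104 for Irf8 and 0.0905 to 0.108 for Rel.

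**Figure D4:**
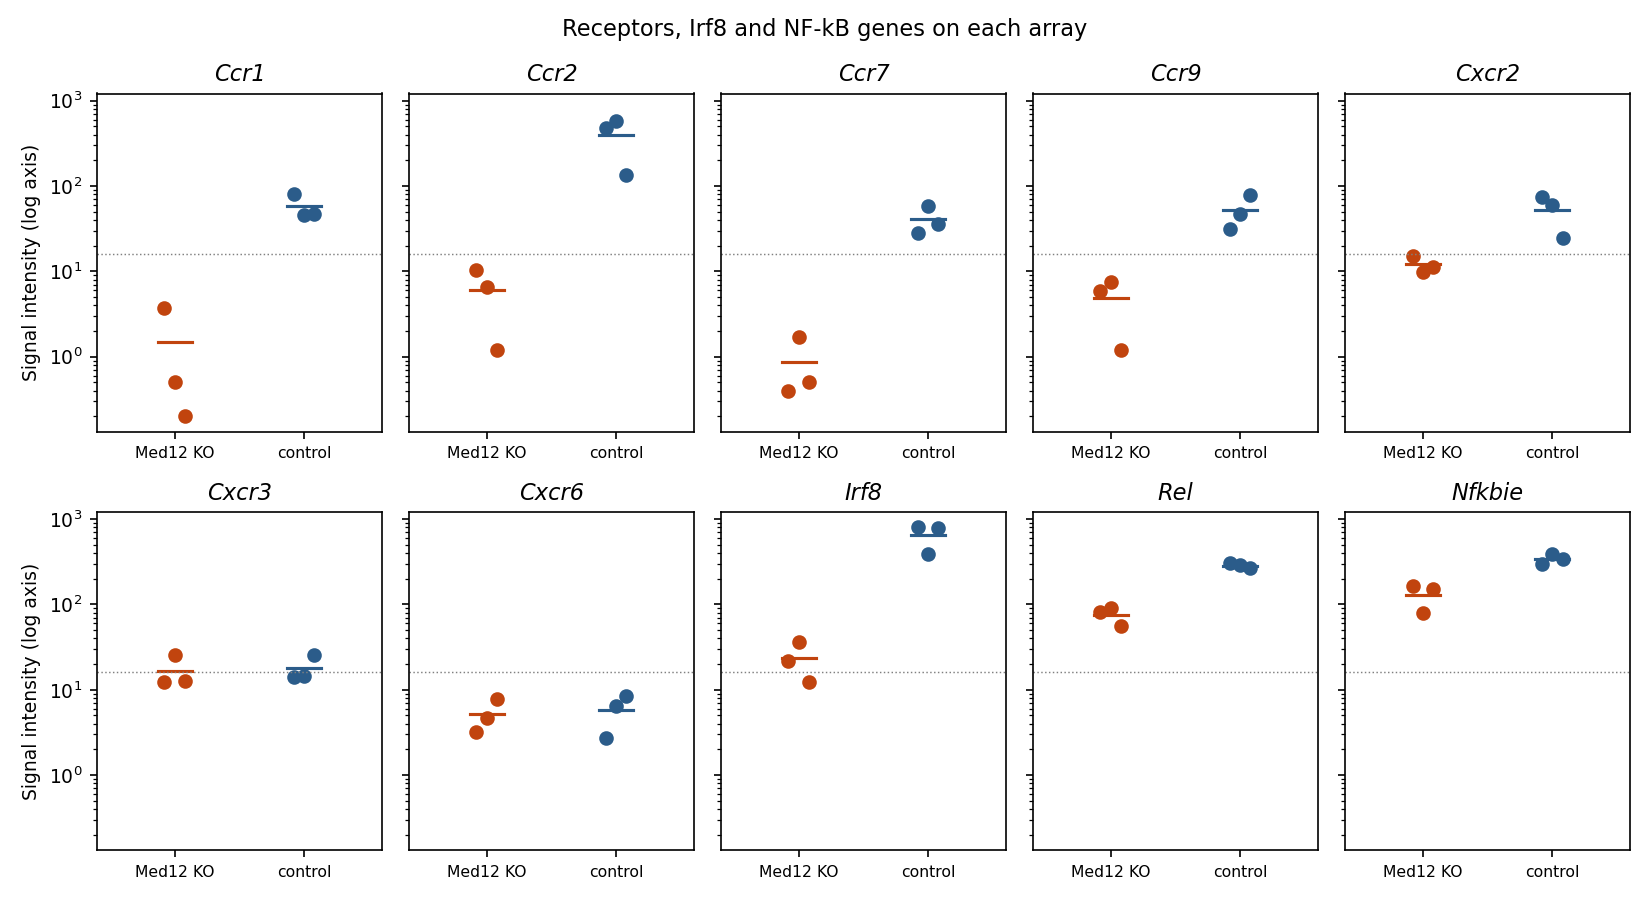
Signal intensity (log axis) of chemokine receptors and of transcription factors and an NF-kB inhibitor on the 3 Med12 KO arrays (orange, left) and the 3 control arrays (blue, right), with bars at the group means and a dotted line at a signal of 16. Ccr1, Ccr2, Ccr7, Ccr9, Cxcr2, Irf8, Rel and Nfkbie separate the groups. Over the full lists the groups overlap for 16 of 22 receptors and 22 of 32 NF-kB and interferon response genes. They separate for 23.4% of all genes. Cxcr3, at 12.3 to 25.4 in Med12 KO cells and 14.3 to 25.7 in control cells, and the dim Cxcr6 overlap.

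Markers of cells that can make these ligands were read on the same arrays, and their part in the differences of the ligands was not tested. The sort for cells without lineage markers is designed to leave out mature myeloid and lymphoid cells. Over all genes 0.638% fell and 0.352% rose at the threshold of limma's test. An unadjusted p under 0.05, counted for the lists here, was reached by 18.2% of all genes. Of 6 listed markers of granulocyte-monocyte progenitors 5 were measured and 4 fell (Mpo, Elane, Prtn3 and Ctsg), while all 5 had an unadjusted p under 0.05. Their summed signal was 768.7 to 1612.7 in Med12 KO cells and 7571.6 to 13950.4 in control cells. Of 12 monocyte and macrophage markers 11 were measured and 2 fell (Csf1r and C1qa), while 5 had an unadjusted p under 0.05. Their summed signal was 469.6 to 845.5 in Med12 KO cells and 1821.1 to 2665.6 in control cells. Adgre1 and Mertk, defining genes of mature macrophages, were under 16 on every array, and the other markers of the list were not. Lyz2 was at 277.4 to 540.9 in Med12 KO cells and 967.5 to 1035.1 in control cells. Cd68 was at 27.3 to 71 in Med12 KO cells and 100 to 188.8 in control cells. Of 9 neutrophil markers 7 were measured and none passed limma's test (1 had an unadjusted p under 0.05), with a summed signal of 56 to 498.2 in Med12 KO cells and 517.7 to 1153 in control cells.

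Of 10 T and NK cell markers, which the sort should remove, 9 were measured and none passed limma's test, while 3 had an unadjusted p under 0.05. Their summed signal was 1080.6 to 1465.3 in Med12 KO cells and 1163.7 to 1536.6 in control cells, most of it from Nkg7. The T cell genes Cd3e and Cd3d did not exceed 19.7 on any array, and Cd3g and Ncr1 were under 16 on all. The 6 megakaryocyte and platelet markers had a summed signal of 4663.8 to 6154 in Med12 KO cells and 2982 to 4444 in control cells. Of them 1 (Itga2b) rose and 2 had an unadjusted p under 0.05. Of 6 dendritic cell and 6 B cell markers, 5 of each were measured and none passed limma's test (1 and 2 had an unadjusted p under 0.05), with summed signals of 47.2 to 117.5 and 92 to 346.2 in Med12 KO cells and 83.9 to 150.6 and 259.7 to 471.7 in control cells. Of 5 mast cell and basophil and 6 stroma and endothelium markers, 4 and 6 were measured and none passed (3 and 2 had an unadjusted p under 0.05), with summed signals of 1744.8 to 2012.9 and 195.4 to 321.4 in Med12 KO cells and 1193.5 to 1412.6 and 485.2 to 640 in control cells. A dimmer probe set of the mast cell gene Ms4a2 rose (limma's adjusted p = 0.0293). Of the gate markers Kit was read, at 514.8 to 617.5 in Med12 KO cells and 805.2 to 1425.4 in control cells. Every Med12 KO signal of Kit lay below every control signal, and Ly6a, the Sca1 gene, was not analysed here. Of 8 measured genes of the gate and of multipotent cells, 1 (Hlf) fell at the threshold. Before adjustment, limma's p was below 0.05 for 5 of these 8. By log2 difference 7 were lower in Med12 KO cells and 1 was higher (Slamf1, 0.49). Flt3 was at 13.8 to 125.9 in Med12 KO cells and 657.1 to 1087.8 in control cells (-3.87, limma's adjusted p = 0.0573). Cd34 was at 447.5 to 1077.4 in Med12 KO cells and 2029.4 to 2278 in control cells (-1.43, limma's adjusted p = 0.132). A dimmer probe set of Kit also fell (limma's adjusted p = 0.0479), while the brighter one did not pass (0.152).

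The differences of the CC ligands of the set kept their sign under every processing tried. For groups that do not overlap, leaving out an array, changing the offset or setting a floor cannot turn the sign. The filters on dim probe sets, the other variance prior and the replicate block leave the difference itself unchanged and repeat the main value. For those settings the kept sign adds no evidence beyond the separation of the groups. Over 18 settings, the log2 difference ran from -5.30 to -3.57 for Ccl3, from -3.68 to -2.21 for Ccl4 and from -1.98 to -1.27 for Ccl5. It ran from -2.02 to -0.58 for the brighter Ccl6 probe set, and from -3.02 to -2.15 and -2.99 to -2.19 for the probe sets of Ccl9. Cxcl10 was below 0 in 6 and above 0 in 12 of the 18. The brighter Cxcl16 probe set was below 0 in 12 and above 0 in 5 of 17, being left out with the stricter filter on dim probe sets. With that filter 6 of the 8 genes were kept, and 7 with the milder one.

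**Figure D5:**
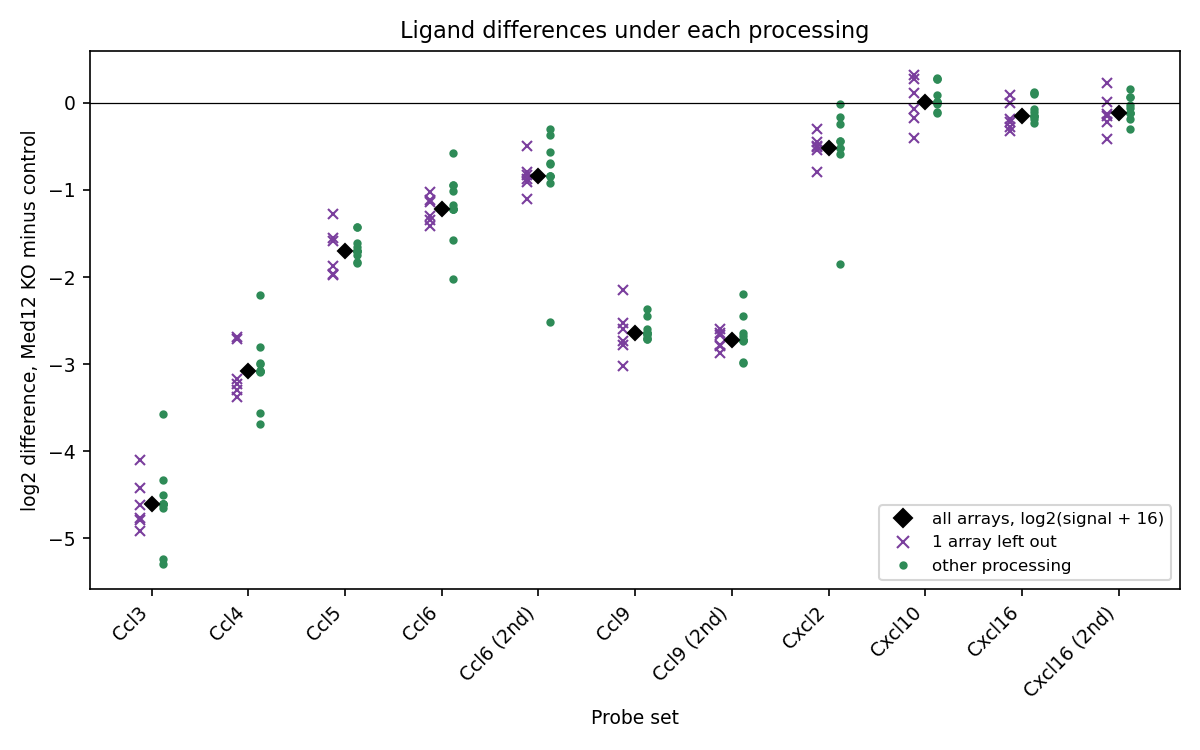
Log2 difference (Med12 KO minus control) of each of the 11 probe sets with all arrays (black diamonds), with 1 array left out (purple crosses) and under other processing (green dots). The probe sets of Ccl3, Ccl4, Ccl5, Ccl6 and Ccl9 stay below 0, while those of Cxcl10 and Cxcl16 fall on both sides of it.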

How the data were processed

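Total RNA (5 ng) was amplified and biotin-labelled, per the labels' protocols. The authors deposited 1 signal intensity per probe set and array. RMA is named in the submitters' processing notes with no version given. The deposited intensities are linear, reach 0 and have a mean of 150 on every array after trimming 2% at each end, so the method that made them is not given in the sources used here. From them log2(signal + 16) was computed, 64 control probe sets were left out, and Med12 KO was compared with control with limma 3.58.1 (lmFit, then eBayes; R 4.3.3), with Benjamini-Hochberg adjustment over 45037 probe sets. All 6 value columns were used, with 0 left out. The annotation gave 34945 probe sets 1 symbol, 932 several and 9160 none, and symbols were checked through Entrez numbers (0 changed). For a gene with several probe sets, the one with the highest mean signal was used. The members and the lists of other ligands, receptors, NF-kB and interferon response genes and cell markers were chosen with earlier results of these data known. The genes named were the members, all called genes of each list, its 4 lowest unadjusted p values, receptors of the members and the 5 nearest patterns to Ccl3, Ccl9, Cxcl10 and Cxcl16. Alternatives were other offsets, a floor, other scalings, filters on dim probe sets, other variance models, a replicate block, leaving out each array and the mean of a gene's probe sets. The fit was tested on simulated data. Same-numbered arrays did not deviate together (correlations of 0.019, 0.019 and 0.002), so the replicate numbers were not used to pair them. Depth does not apply to arrays.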

Additional observations from a re-analysis of the deposited data

How the results depend on the processing

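The count of called probe sets (343) and the calls among receptors (3) and NF-kB and interferon response genes (2) depended on the settings, while 0 other ligands were called under any setting tried. Called probe sets numbered 42 with an offset of 1, 84 with a floor of 16, 693 after median centring, 712 and 763 without the dimmest 25% and 50%, and 0 with a replicate block (6752 with an unadjusted p under 0.05 in limma). With 1 array left out they numbered 0 to 10, receptor calls 0 to 1 and calls among response genes 0. Leaving out control replicates 1, 2 and 3 gave 8, 8 and 10 probe sets, and leaving out Med12 KO replicates 1, 2 and 3 gave 0, 3 and 0 (6219, 6029 and 5340 with an unadjusted p under 0.05 in limma). Receptor calls numbered 1 with an offset of 1 and 0 with an offset of 64, a floor or the replicate block. Calls among response genes numbered 1 with an offset of 1 and 0 with a floor or the block. The share of higher calls was 28.9%, and 62.2% after median centring or 43.0% after quantile normalization. Median centring moved the median over all probe sets from -0.07 to 0.20. The median of the 8 ligands was -1.94 with an offset of 1, -0.998 with an offset of 64, -1.71 with a floor and -1.19 after median centring, and -1.63 to -1.15 with 1 array left out, where it was -1.15 without Med12 KO replicate 3. Cxcl10 turned to -0.015 with an offset of 64, -0.10 with a floor and -0.12 with array weights, and lay between -0.41 and 0.32 with 1 array left out. Cxcl16 turned to 0.12 after median centring and to 0.11 with either quantile or loess normalization, and lay between -0.33 and 0.087 with 1 array left out. The cause of these changes was not tested. Not every array correlated best with its own replicate number (0.019, 0.019 and 0.002 for the same number, -0.057 to 0.034 for others). With the filters on dim probe sets the ligands' median was not computed, since dim ligands drop out. Dim signals limit what can be said of Cxcl2, Cxcl10, Cxcl16 and Ccl6.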
